A study of Mus musculus with 32 samples.

Results

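Acyl-CoA thioesterases, encoded by the Acot genes, were followed in the livers of mice without and with Fatp2, on a ketogenic or a control diet, after a long or a short fast. The genes are Acot1, Acot2, Acot3, Acot4, Acot7, Acot8, Acot9, Acot12 and Acot13. They were chosen by name, as the rows of the deposited table that carry these symbols, which gave 9 of its 35275 genes. All 9 passed the filter on low counts and were tested. By the usual place of the enzyme, Acot1, Acot7 and Acot12 were counted as cytosolic, Acot2, Acot9 and Acot13 as mitochondrial, and Acot3, Acot4 and Acot8 as peroxisomal, 3 genes in each compartment.

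PolyA RNA was sequenced from whole livers of 32 male c57bl6 mice aged 16 weeks, 4 animals in each of 8 groups. KO mice were Fatp2-/-, lacking the fatty acid transport protein that the gene Slc27a2 encodes, and WT mice were wild-type controls. From 12 weeks of age they ate a ketogenic diet (KD) or a control-ketogenic diet (CD), and before death they were fasted for 24 h or 4 h. The groups were KO KD 24 h, KO KD 4 h, KO CD 24 h, KO CD 4 h, WT KD 24 h, WT KD 4 h, WT CD 24 h and WT CD 4 h. No group was sampled without a fast. The sources used here do not give how the Fatp2-/- allele was made, whether the controls were littermates, or the composition of the diets. In the labels the deletion is tied to no single tissue or cell type.

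A thioesterase hydrolyses the bond between a fatty acid and coenzyme A (CoA), which frees both, and so works against the acyl-CoA synthetases that make the bond. The enzymes sit in separate compartments because acyl-CoA pools do: the cytosol, where acyl-CoA is made and used for lipid synthesis, the mitochondrial matrix, where it is oxidised and CoA is limiting, and the peroxisome, where very long, branched and dicarboxylic chains are shortened. Acot1 to Acot6 of the mouse are close relatives that arose by tandem duplication, and several of them are known targets of PPARα, a lipid-activated nuclear receptor of the fasted liver. PPARα binds, with its partner RXR, to a direct repeat of a short half-site with 1 base between the copies.

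The tandem cluster lies on chromosome 12 in the order Acot2, Acot1, Acot4, Acot3, Acot5 and Acot6, all on the plus strand (GRCm38). Acot2 spans 83987861 to 83993873, Acot1 84009502 to 84017670, Acot4 84038379 to 84044723 and Acot3 84052144 to 84059565. The 250 bases before the start of these 4 genes and of Acot12 are shown, the first 4 for the wide range of their transcripts and Acot12 for the motif found in it. They were read 5′ to 3′ from RefSeq promoter windows of build GRCm38.p6, which held a window for 8 of the 9 genes. The motif AGGTCA, any 1 base and AGGTCA again was searched on both strands with at most 2 mismatches. Capitals mark a match.
Acot2: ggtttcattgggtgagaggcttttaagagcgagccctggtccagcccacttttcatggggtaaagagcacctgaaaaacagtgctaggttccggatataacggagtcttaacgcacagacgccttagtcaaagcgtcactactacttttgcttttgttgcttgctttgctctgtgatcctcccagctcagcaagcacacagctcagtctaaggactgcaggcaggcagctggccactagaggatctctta
Acot1: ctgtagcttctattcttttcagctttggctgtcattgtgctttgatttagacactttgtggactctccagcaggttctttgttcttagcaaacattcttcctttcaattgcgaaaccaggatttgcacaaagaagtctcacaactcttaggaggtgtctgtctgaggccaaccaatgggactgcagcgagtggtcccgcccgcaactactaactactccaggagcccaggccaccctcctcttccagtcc
Acot4: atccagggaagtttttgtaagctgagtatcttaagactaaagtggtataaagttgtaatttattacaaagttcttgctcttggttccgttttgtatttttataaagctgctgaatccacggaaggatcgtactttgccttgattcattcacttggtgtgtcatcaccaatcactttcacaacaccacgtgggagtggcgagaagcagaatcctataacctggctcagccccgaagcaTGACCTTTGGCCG
Acot3: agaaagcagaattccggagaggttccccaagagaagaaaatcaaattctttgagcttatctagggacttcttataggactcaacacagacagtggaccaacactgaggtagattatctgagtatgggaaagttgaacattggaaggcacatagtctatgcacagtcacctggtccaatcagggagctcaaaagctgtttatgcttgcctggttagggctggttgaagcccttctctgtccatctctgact
Acot12: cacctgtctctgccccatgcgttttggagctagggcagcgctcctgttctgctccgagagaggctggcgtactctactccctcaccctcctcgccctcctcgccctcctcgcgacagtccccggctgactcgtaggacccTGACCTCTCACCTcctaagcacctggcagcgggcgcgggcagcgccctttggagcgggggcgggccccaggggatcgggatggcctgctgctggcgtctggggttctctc
The windows are chr12:83987611-83987860 for Acot2, chr12:84009252-84009501 for Acot1, chr12:84038129-84038378 for Acot4, chr12:84051894-84052143 for Acot3 and chr13:91741271-91741520 for Acot12, all on the plus strand. Acot12 held a match with 1 mismatch, TGACCTCTCACCT, from 110 to 98 bases before the RefSeq start at the end of its window, which lies inside the gene as the deposited table spans it. Acot4 held one with 2 mismatches, TGACCTTTGGCCG, in the last 13 bases. Both lie in the opposite orientation to the gene. The windows of Acot1, Acot2, Acot3, Acot7, Acot8 and Acot9 held none. That of Acot7 (chr4:152185358-152185607) lies inside the gene as the table spans it, so the bases before the start of Acot7 in the table were not searched. Of 32851 such windows of the genome, 3.24% held a match with at most 2 mismatches and 0.484% one with at most 1. A match of letters is a description of these windows and not a measured binding site.

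The other genes lie elsewhere: Acot7 on chromosome 4 (152178134 to 152271855, plus strand), Acot8 on chromosome 2 (164792768 to 164804882, minus strand), Acot9 on chromosome X (155262443 to 155297654, plus strand), and Acot12 and Acot13 on chromosome 13 (91741512 to 91786148, plus strand, and 24817948 to 24831517, minus strand). Acot1 and Acot2 were identical at 95.6% of aligned coding bases. Of the 50-base windows of the Acot1 transcript 23.7% also occurred in Acot2, and 24.5% the other way, so the split of reads between these genes is uncertain. Acot3 shared 7.7% and Acot4 4.5% of its windows with any other Acot gene, and Acot7, Acot8, Acot9, Acot12 and Acot13 shared none. The noncoding RNA 4732463B04Rik runs against Acot4 and Acot3 on the minus strand. No source used here gives the strand setting of the counting, so reads of the overlaps cannot be told apart. It had 3388 reads in all, against 15893 for Acot4 and 12883 for Acot3. Acot8 overlaps the end of Snx21, which had 7807 reads against 10754, and Acot12 an antisense RNA with 1243 reads against 93990.

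Libraries held 13406678 to 24700310 counts, and the lowest count of any member in a library was 13 reads, for Acot3. Slc27a2 stood at 121 to 318 CPM (counts scaled to a common library size) in the KO libraries, against 905 to 2230 CPM in the WT libraries. Albumin and the other 4 hepatocyte markers were present in all 32 libraries. Some libraries stood apart. Skeletal muscle actin, Acta1, reached 78.4 CPM (replicate 1) and 178 CPM (replicate 2) among KO CD 24 h livers, 162 CPM among KO KD 4 h livers (replicate 4) and 86.1 CPM among WT CD 24 h livers (replicate 1), and at most 0.504 CPM elsewhere, while the muscle creatine kinase Ckm was at 0 in 26 libraries. On 68 genes that KD changed the same way in WT livers at both times, none of them among the 9 genes, the WT CD mean was set to 0 and the WT KD mean to 1. On this scale replicate 4 of the libraries labelled KO CD 24 h was at 0.81, where the other 3 had 0.15 to 0.34. Replicate 4 of those labelled KO KD 24 h was at 0.30, where the other 3 had 0.78 to 0.82. The titles number the samples in distinct blocks for each genotype and fasting time, so a batch that follows these blocks cannot be told apart from either.

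Levels of the cytosolic enzymes differed most for Acot1, which hydrolyses long-chain acyl-CoA. In fasted livers on KD at 24 h, Acot1 was at 199, 183, 153 and 374 CPM in KO, against 108, 52.8, 104 and 49.9 CPM in WT. On KD at 4 h it was at 197, 144, 133 and 133 CPM in KO, against 59.7, 53.4, 54.5 and 66.8 CPM in WT. Every KO library on KD was above every WT library at the same time. On CD at 24 h Acot1 was at 298, 514, 215 and 245 CPM in KO, against 243, 580, 474 and 237 CPM in WT, and the genotypes overlapped. On CD at 4 h it was at 133, 126, 164 and 58.1 CPM in KO, against 24.3, 17.7, 7.23 and 16.5 CPM in WT, again with no overlap. Ordered by mean the groups were WT CD 24 h (384 ± 171 CPM, SD, n = 4 as for all means here), KO CD 24 h (318 ± 135), KO KD 24 h (227 ± 99.5), KO KD 4 h (151 ± 30.9), KO CD 4 h (120 ± 44.6), WT KD 24 h (78.7 ± 31.6), WT KD 4 h (58.6 ± 6.13) and WT CD 4 h (16.4 ± 7.01). Neighbours in this order overlapped, except that WT CD 4 h lay below all others. The 4 groups of KO livers thus spanned 120 to 318 CPM, against 16.4 to 384 CPM for the 4 groups of WT livers.

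Acot12, a cytosolic acetyl-CoA hydrolase typical of liver, had a narrower range. On CD at 24 h it was at 200, 222, 194 and 203 CPM in KO, against 155, 274, 219 and 240 CPM in WT. On CD at 4 h it was at 157, 162, 164 and 118 CPM in KO, against 108, 119, 117 and 110 CPM in WT. The lowest KO library at 4 h, replicate 4, lay inside the range of WT. On KD at 24 h it was at 206, 187, 183 and 241 CPM in KO, against 141, 140, 163 and 141 CPM in WT, with no overlap, and on KD at 4 h the means were 164 ± 8.66 in KO and 161 ± 6.91 in WT. WT CD 24 h (222 ± 50.2), KO CD 24 h (205 ± 12.3) and KO KD 24 h (204 ± 26.2) overlapped one another at the top, and KO KD 24 h lay apart from KO KD 4 h, the next in order. WT CD 4 h (113 ± 5.23) was the lowest, apart from its neighbour in the order, WT KD 24 h (147 ± 11.2). Acot7, a cytosolic enzyme best known from brain, went the other way. Its highest groups were KO CD 4 h (23.3 ± 2.77 CPM) and WT CD 4 h (21.7 ± 3.08), and the other 6 group means lay from 13.5 in WT KD 24 h to 17.1 in KO KD 4 h.

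Among the mitochondrial enzymes Acot2, the matrix counterpart of Acot1, varied most. On KD at 24 h it was at 19.1, 16.9, 12.3 and 36.9 CPM in KO, against 4.99, 5.31, 8.13 and 8.29 CPM in WT. On KD at 4 h it was at 28.7, 18.6, 15.2 and 13 CPM in KO, against 4.27, 5.96, 2.42 and 5.55 CPM in WT. KO and WT did not overlap at either time. On CD at 24 h Acot2 was at 22.5, 47.6, 15.0 and 19.7 CPM in KO, against 27.1, 23.2, 41.7 and 18.1 CPM in WT. On CD at 4 h it was at 18.9, 16.0, 17.0 and 10.2 CPM in KO, against 2.6, 3.8, 2.17 and 3.19 CPM in WT. The genotypes overlapped at 24 h and were apart at 4 h. In the order of means, WT CD 24 h (27.6 ± 10.1) and the 4 groups of KO livers (15.5 ± 3.77 to 26.2 ± 14.6) overlapped their neighbours and lay apart from the 3 other WT groups (2.94 ± 0.713 to 6.68 ± 1.77), which overlapped in turn. Acot13, a small hotdog-fold thioesterase found with mitochondria, ranged from 64.1 ± 5.8 CPM in KO KD 24 h to 35.3 ± 4.24 in WT CD 4 h, with every neighbouring pair of groups overlapping. Acot9, a matrix enzyme, was the scarcest member by reads, with group means from 4.77 ± 1.56 CPM in WT CD 24 h to 2.92 ± 0.745 in WT KD 24 h, and all neighbouring groups overlapped.

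The peroxisomal enzyme Acot3, which acts on long-chain acyl-CoA, had the widest range of all 9. On KD at 24 h Acot3 was at 31.1, 74.6, 27.7 and 34.6 CPM in KO, against 7.45, 2.86, 5.37 and 4.15 CPM in WT, with no overlap. On KD at 4 h it was at 26.9, 20.8, 9.22 and 9.31 CPM in KO, against 4.47, 9.86, 5.96 and 8.05 CPM in WT, and the groups overlapped. On CD at 24 h it was at 52.1, 40.4, 45.6 and 102 CPM in KO, against 31.7, 25.2, 86.3 and 21.6 CPM in WT, with overlap. On CD at 4 h it was at 12.1, 7.81, 27.7 and 2.88 CPM in KO, against 2.28, 1.93, 0.723 and 1.96 CPM in WT. All KO libraries were above all WT libraries at 4 h on CD, and KO replicate 3 was the highest. The 24 h groups KO CD (59.9 ± 28.2), KO KD (42 ± 21.9) and WT CD (41.2 ± 30.4) were the top 3, WT CD 4 h (1.72 ± 0.686) was the lowest and lay apart, and all other neighbours overlapped.

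Acot4, known in the mouse as the peroxisomal succinyl-CoA thioesterase, followed Acot3 over a smaller range. On CD at 24 h it was at 40.2, 40.6, 40.3 and 70.1 CPM in KO, against 28.7, 39.8, 63.1 and 32.9 CPM in WT. On CD at 4 h it was at 25.7, 20.1, 31.0 and 11.8 CPM in KO, against 10.6, 12.9, 10.3 and 12.9 CPM in WT. The KO library of the lowest level at 4 h, replicate 4, lay among the WT libraries. On KD at 24 h it was at 35.4, 46.2, 30.5 and 33.5 CPM in KO, against 21.1, 18.9, 26.2 and 16.5 CPM in WT, with no overlap, and on KD at 4 h the means were 27.5 ± 5.78 in KO and 22.8 ± 1.52 in WT. WT CD 4 h (11.7 ± 1.4) was the lowest group and overlapped only KO CD 4 h (22.1 ± 8.21). Acot8, a peroxisomal enzyme of broad specificity that also acts on bile acid CoA esters, was on CD at 4 h at 21.4, 19, 22.3 and 15.8 CPM in KO, against 13.2, 14.0, 11.6 and 10.1 CPM in WT, without overlap. Its group means lay from 19.6 to 23.6 CPM in KO livers, against 12.2 to 25.4 CPM in WT livers.

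**Figure D1:**
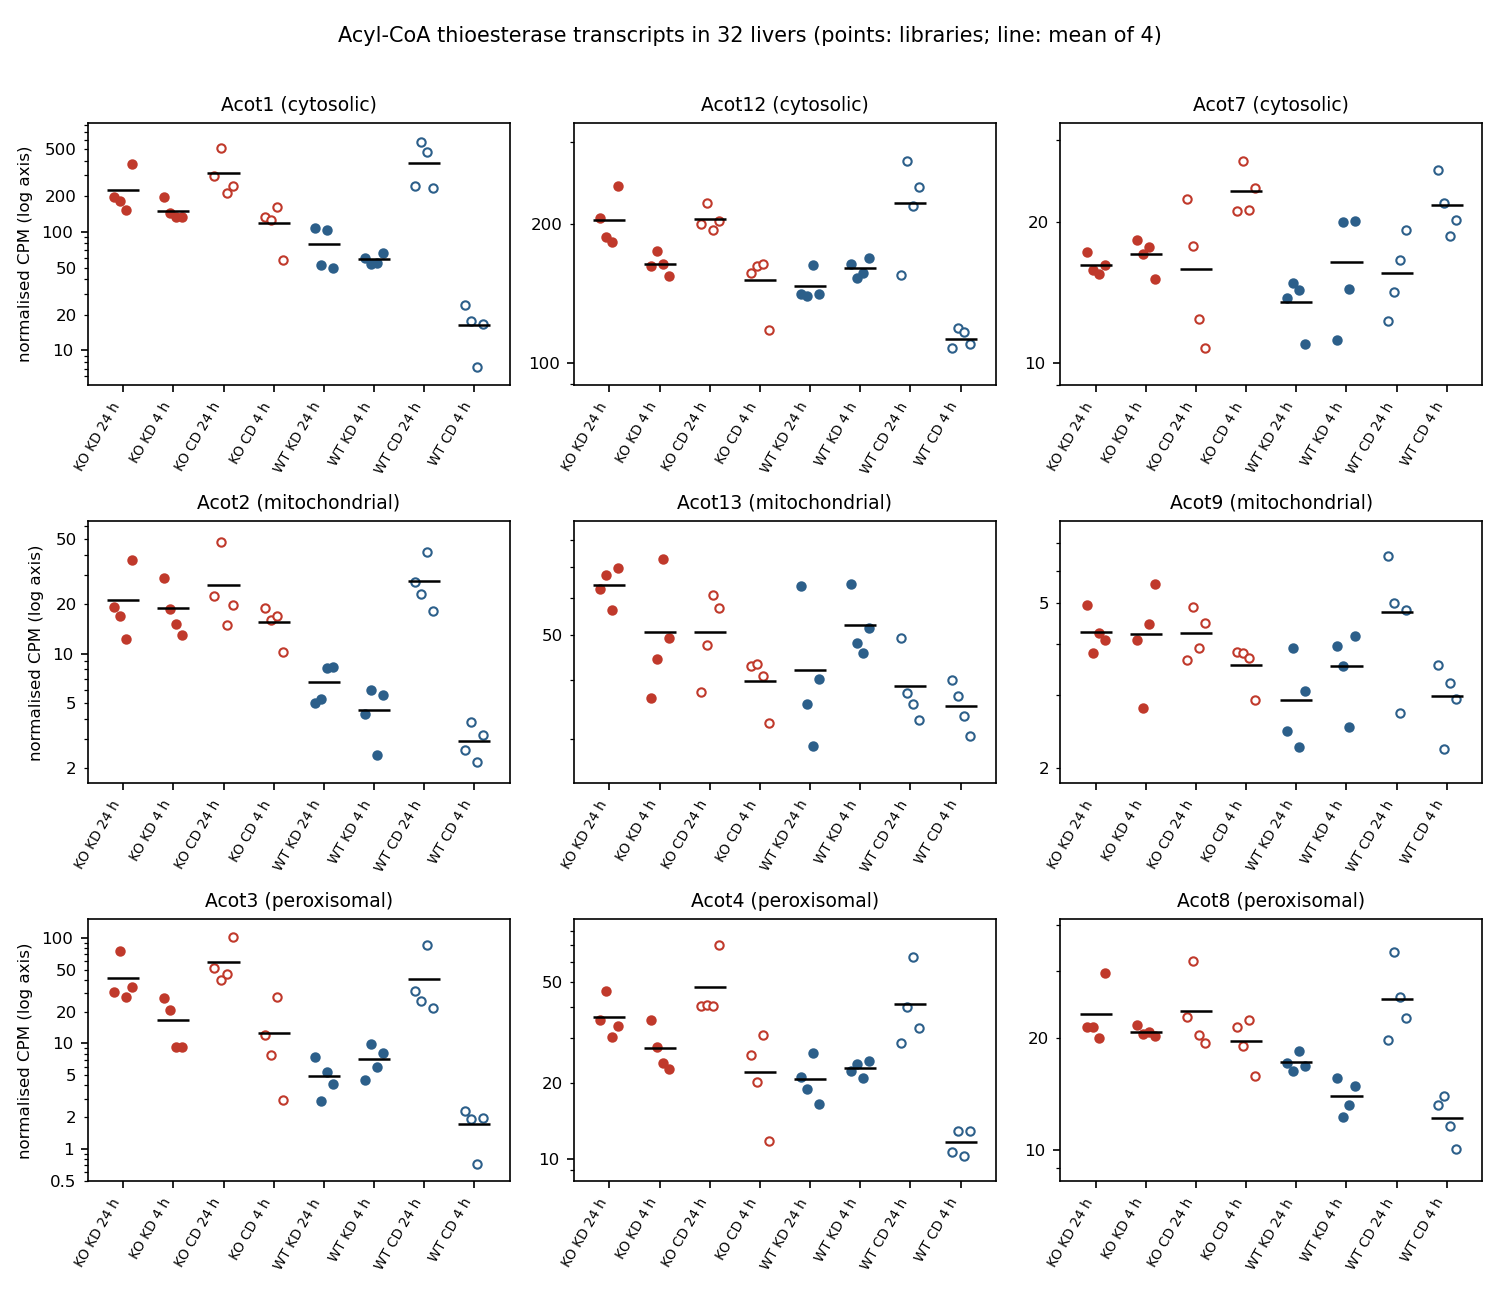
Normalised CPM of the 9 genes (log axis) in each of the 32 libraries, by group, with a line at the mean of 4; red is KO, blue is WT, filled is KD and open is CD, and the rows hold the cytosolic, mitochondrial and peroxisomal genes. Acot1, Acot2 and Acot3 have means of 384, 27.6 and 41.2 CPM in WT CD 24 h, against 16.4, 2.94 and 1.72 CPM in WT CD 4 h, their lowest group. The ratio of the highest to the lowest group mean is 1.82 for Acot13, 1.72 for Acot7 and 1.63 for Acot9.

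The ratio of the highest to the lowest group mean was 34.8 for Acot3, 23.4 for Acot1, 9.38 for Acot2 and 4.09 for Acot4. These are the 4 of the 9 genes that lie in the tandem cluster. It was 2.08 for Acot8, 1.96 for Acot12, 1.82 for Acot13, 1.72 for Acot7 and 1.63 for Acot9. The 4 widest ranges among the 9 genes were thus those of the 4 in the cluster, 1 cytosolic, 1 mitochondrial and 2 peroxisomal.

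Between genes, levels were compared per length, on the deposited FPKM (reads scaled to gene length and library total). In the 4 groups of KO livers and in WT CD 24 h Acot1 was first, from 75.2 ± 27.2 FPKM in KO CD 4 h to 224 ± 84 in WT CD 24 h. Its range overlapped that of Acot13, the second, in KO KD 4 h and KO CD 4 h. After the short fast on CD, WT livers had most Acot13 (46.8 ± 3.74 FPKM) and Acot12 (35.6 ± 1.93), with Acot1 behind Acot7 at 10.1 ± 4.1 and Acot3 last at 0.636 ± 0.248. In WT KD 4 h Acot13 (79.8 ± 10.3), Acot12 (57.7 ± 1.17) and Acot1 (41.2 ± 2.34) lay apart in that order, and in WT KD 24 h the same 3 genes were on top and overlapped. Acot9 was last in every group other than WT CD 4 h, at 1.67 to 2.7 FPKM.

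Summed over the 9 genes, the level was 348 ± 61.8 FPKM in KO KD 24 h, against 193 ± 30.5 in WT KD 24 h, and 310 ± 18 in KO KD 4 h, against 221 ± 7.48 in WT KD 4 h. It was 426 ± 82.6 in KO CD 24 h, against 415 ± 91.3 in WT CD 24 h, and 230 ± 45.7 in KO CD 4 h, against 124 ± 6.98 in WT CD 4 h. The lowest KO sum exceeded the highest WT sum in each of these pairs other than CD at 24 h. The cytosolic genes made up 59.8 ± 2.25% of the sum in KO CD 4 h, against 48.0 ± 1.51% in WT CD 4 h, and the mitochondrial genes 27.8 ± 3.31% against 40.1 ± 1.67%. In neither case did the genotypes overlap. The fast shifted WT livers on CD the same way: the cytosolic share was 71.7 ± 6.74% at 24 h, against 48.0 ± 1.51% at 4 h, and the mitochondrial share 16.4 ± 6.11% against 40.1 ± 1.67%. The summed level of the mitochondrial genes was not lower with their share, at 65.4 ± 18.2 FPKM in WT CD 24 h and 62.9 ± 6.08 in KO CD 4 h, against 49.8 ± 3.68 in WT CD 4 h. Most of the shift with the fast was Acot1, with 52.6 ± 8.76% of the sum in WT CD 24 h, against 8.0 ± 2.94% in WT CD 4 h. The peroxisomal share stayed between 11.7 ± 0.583% and 14.9 ± 4.36% in all 8 groups. These shares rest on the same counts as the tests below and are given without a test.

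**Figure D2:**
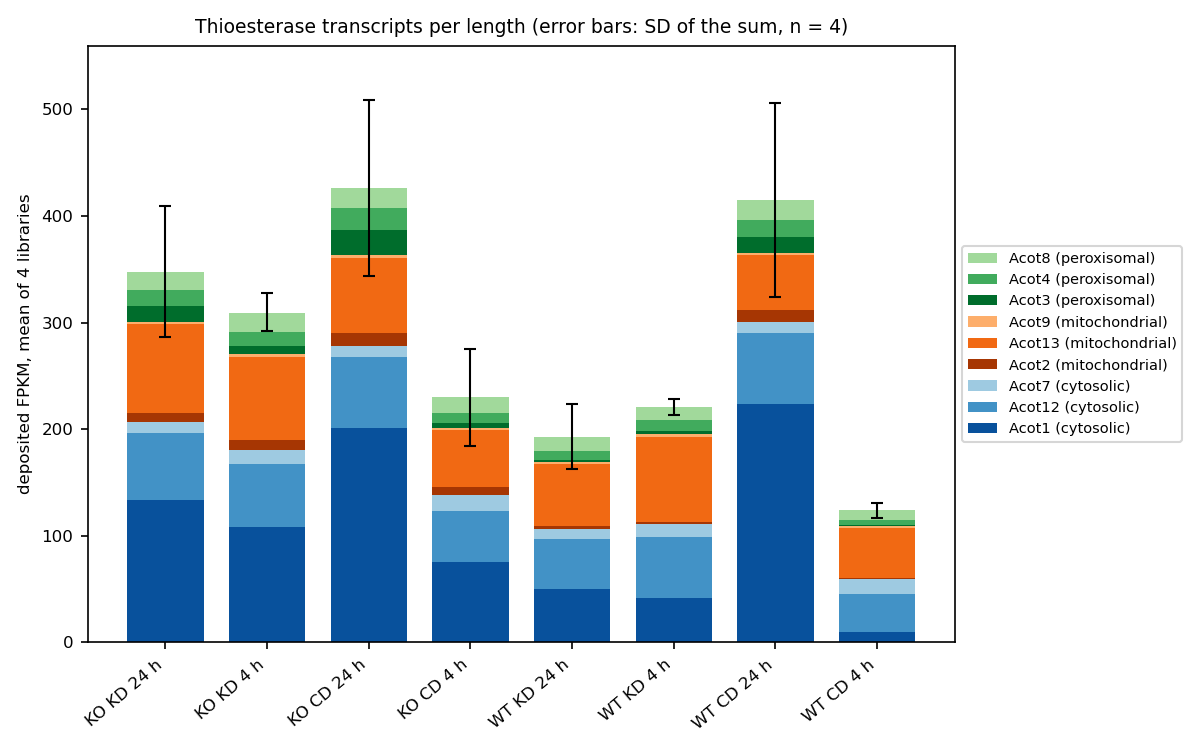
Mean deposited FPKM of the 9 genes, stacked by compartment (blue cytosolic, orange mitochondrial, green peroxisomal) for each group; bars show the SD of the sum over 4 libraries. The columns of KO CD 24 h and WT CD 24 h are the highest at 426 and 415 FPKM, with 46.3% and 52.6% from Acot1, and that of WT CD 4 h is the lowest at 124 FPKM, with 8.0% from Acot1.

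The long fast was compared with the short one within each genotype and diet. The comparisons below share groups, WT CD 4 h for example entering those of fast, genotype and diet, so they are not independent of each other. In WT livers on CD the long fast raised 7 of the 9 genes and lowered none, where 8.89% of all 14438 genes tested were higher (edgeR, Benjamini-Hochberg adjusted p under 0.05, the rule for every call here). All 3 peroxisomal, 2 of 3 mitochondrial and 2 of 3 cytosolic genes were among them, and the median log2 fold change of the 9 was 1.05, against 0.02 for all genes. Acot3 rose by 4.58 ± 0.61 on the log2 scale (SE; adjusted p = 3.98e-06), Acot1 by 4.55 ± 0.42 (1.7e-08, a 23.4-fold difference), Acot2 by 3.23 ± 0.39 (9.18e-07) and Acot4 by 1.81 ± 0.25 (5.88e-06). Outside the cluster the changes were smaller, 1.05 ± 0.16 for Acot8 (2.92e-05), 0.97 ± 0.13 for Acot12 (4.83e-06) and 0.68 ± 0.23 for Acot9 (0.037). Acot13 (0.14 ± 0.20, 0.67) and Acot7 (−0.48 ± 0.19, 0.0705) did not pass. For 6 genes no library at 24 h overlapped one at 4 h, where 8.39% of genes tested were higher without overlap.

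The call of Acot9 was lost without replicate 1 (adjusted p = 0.195) or 2 (0.0708) of WT CD 24 h, or of WT CD 4 h replicate 2 (0.129), 3 (0.0581) or 4 (0.0616), without the libraries that held muscle transcripts (0.199), without the filter on low counts (0.0649), and with only the groups compared in the fit (0.131). Acot7 passed as lower without WT CD 24 h replicate 4 (−0.58, 0.0362). The fold of Acot3 was 3.95 on the log2 scale without WT CD 24 h replicate 3, which had 86.3 CPM. Muscle markers were higher at 24 h for 3 of 7 genes, summed to between 0.962 and 321 CPM at 24 h, against 0.736 to 1.22 CPM at 4 h. Without the 4 libraries with muscle transcripts the 6 other calls stood.

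In KO livers on CD the long fast raised 4 of the 9 genes, where 8.97% of genes tested were higher, and lowered 1, where 9.75% were lower. Acot3 rose by 2.24 ± 0.51 (adjusted p = 0.00359), Acot1 by 1.40 ± 0.36 (0.00884), Acot4 by 1.11 ± 0.24 (0.00237) and Acot12 by 0.44 ± 0.13 (0.0186), on the log2 scale. None of the mitochondrial genes passed, and Acot2 was at 0.75 ± 0.34 (0.117). Acot7 fell by 0.55 ± 0.19 on the log2 scale (0.0375). Acot1, Acot3, Acot4 and Acot12 showed no overlap between the times, where 9.66% of genes tested were higher without overlap. Without the 4 libraries with muscle transcripts, KO CD 24 h replicates 1 and 2 among them, Acot1 was at 0.93 and no longer passed (0.0841), while 4259 genes did, against 2703 with all libraries. Muscle markers, 5 of 7 of them higher, summed to 1.74 to 642 CPM at 24 h, against 0.611 to 0.977 CPM at 4 h. The call of Acot7 was lost without replicate 3 (0.146) or 4 (0.162) of KO CD 24 h, or of KO CD 4 h replicate 2 (0.108) or 4 (0.0734), and with only these groups in the fit (0.0988). That of Acot12 was lost without KO CD 4 h replicate 4 (0.0905) or the filter on low counts (0.052). The log2 fold of Acot3 lay from 1.88 to 2.98 over the alternatives, with 2.98 without KO CD 4 h replicate 3. The highest Acot3 (102 CPM) and Acot4 (70.1 CPM) of KO CD 24 h were those of replicate 4, which lay nearer to the other diet. Kupffer cell and macrophage markers were lower at 24 h for 4 of 10 genes, with sums of 158 to 327 CPM at 24 h, against 357 to 450 CPM at 4 h. The part of these cells in the levels was not tested, and in whole liver fewer cells of a type and less RNA per cell cannot be told apart.

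On KD the long fast moved no member past the threshold in either genotype. In WT livers 0 of 9 passed by edgeR or by DESeq2 and 0 had an unadjusted p under 0.05, where 10.9% of genes tested were called. Acot1 was at 0.42 ± 0.36, with a 95% interval from −0.31 to 1.16 on the log2 scale, and Acot3 at −0.53 ± 0.55 (−1.65 to 0.60). These intervals lie below the fold of either gene on CD. Acot8, at 0.29 ± 0.16 (adjusted p = 0.272), did not pass, with 16.3 to 18.4 CPM at 24 h, against 12.3 to 15.6 CPM at 4 h. Acot13 passed as lower without WT KD 24 h replicate 1 (−0.60, adjusted p = 0.0436), which had 63.8 CPM against 29.0 to 40.3 in its group. Hepatocyte markers were higher at 24 h for 2 of 5 genes. Stellate cell and fibroblast markers and sinusoidal endothelial markers were each lower for 1 of 5 genes. Stellate cell and fibroblast sums were 156 to 189 CPM at 24 h, against 220 to 272 CPM at 4 h. The part of these cells was not tested. In KO livers 0 of 9 passed by edgeR, where 9.38% of genes tested were called, 2 had an unadjusted p under 0.05, and DESeq2 called 1. Those 2 were Acot3 (1.34 ± 0.50, adjusted p = 0.086) and Acot12 (0.32 ± 0.13, 0.112), and both were higher at 24 h without overlap, where 9.94% of genes tested were. Acot12 was the gene that DESeq2 called (0.0492). In the same comparison 3 of 10 Kupffer cell and macrophage markers were lower at 24 h. Their sums were 190 to 319 CPM at 24 h, against 321 to 481 CPM at 4 h. Muscle markers were lower at 24 h for 4 of 7 genes, with muscle transcripts in KO KD 4 h replicate 4. The library labelled KO KD 24 h replicate 4 lay nearer to the other diet. The part of these cells was not tested.

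Loss of Fatp2 was examined first on CD at 4 h. In KO livers 5 of the 9 genes were higher than in WT livers and none was lower, where 1.38% of genes tested were higher. They were all 3 peroxisomal genes, 1 cytosolic and 1 mitochondrial gene, and included Acot1, Acot2, Acot3 and Acot4 of the cluster. Acot1 was higher by 2.88 ± 0.39 on the log2 scale (adjusted p = 2.18e-05, a 7.34-fold difference), Acot3 by 2.88 ± 0.60 (0.00508), Acot2 by 2.40 ± 0.38 (0.000227), Acot4 by 0.92 ± 0.25 (0.047) and Acot8 by 0.69 ± 0.16 (0.0176). Acot12 was at 0.41 ± 0.13 (0.14), and Acot7, Acot9 and Acot13 at 0.10 to 0.25 (adjusted p from 0.94 to 1). For Acot1, Acot2, Acot3 and Acot8 no KO library overlapped a WT library, where 4.59% of genes tested were higher without overlap.

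Calls of Acot1 and Acot2 on CD at 4 h stood without any 1 of the 8 libraries. That of Acot3 was lost without KO CD 4 h replicate 3 (2.15, adjusted p = 0.0515). That of Acot4 was lost without any 1 library other than KO CD 4 h replicate 4 (0.0675 to 0.241), and that of Acot8 without replicate 1 (0.0715) or 3 (0.0761) of KO or replicate 3 (0.0735) or 4 (0.07) of WT. Acot12 passed without KO CD 4 h replicate 4 (0.51, 0.0445), by DESeq2 (0.0395), with only these groups in the fit (0.0312) and without the libraries that held muscle transcripts (0.0446). None of the 5 hepatocyte markers and none of the 10 Kupffer cell and macrophage markers passed in this comparison.

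On CD at 24 h no member passed between KO and WT livers. By edgeR 0 of 9 passed and 0 had an unadjusted p under 0.05, DESeq2 called 0, and 2.07% of genes tested were called. Acot1 was at −0.27 ± 0.36, with a 95% interval from −1.0 to 0.46 on the log2 scale, Acot2 at −0.08 ± 0.34 (−0.77 to 0.62) and Acot3 at 0.54 ± 0.49 (−0.46 to 1.54). All 3 intervals lie below the difference of the same gene at 4 h, 2.88 for Acot1 and Acot3 and 2.40 for Acot2. Those estimates at 4 h carry errors of their own, with an interval of 1.66 to 4.1 for Acot3. For Acot3 the difference between the times did not pass when tested itself (edgeR adjusted p = 0.184). Without the libraries that held muscle transcripts Acot13 passed as higher in KO (0.74, adjusted p = 0.0426), but there 15.2% of genes tested were called. That fit kept only replicates 3 and 4 of KO CD 24 h, and replicate 4 lay nearer to the other diet. With only replicate 4 left out, 105 genes passed, against 299 with all libraries, and 0 of the 9 members. Kupffer cell and macrophage markers were lower in KO for 7 of 10 genes, with sums of 158 to 327 CPM in KO, against 299 to 1070 CPM in WT, and their part in the levels was not tested.

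On KD at 4 h 2 of the 9 genes were higher in KO than in WT livers, where 1.84% of genes tested were. Acot2 was higher by 2.06 ± 0.37 (adjusted p = 0.00106) and Acot1 by 1.37 ± 0.37 (0.0343), and Acot8 was at 0.57 ± 0.16 (0.0526). These 3 genes did not overlap between genotypes, where 4.52% of genes tested were higher without overlap. The call of Acot2 stood without any 1 library. That of Acot1 was lost without KO KD 4 h replicate 1 (0.119) or 2 (0.069) or any 1 WT KD 4 h library (0.0627 to 0.101). Acot8 passed by DESeq2 (0.0259), with only these groups in the fit (0.0435), without the libraries that held muscle transcripts (0.0208) and without those nearer to the other diet (0.0337). Kupffer cell and macrophage markers summed to 321 to 481 CPM in KO, against 491 to 668 CPM in WT, without overlap. None of the 10 passed, and their part in the levels was not tested.

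On KD at 24 h 4 of the 9 genes were higher in KO livers, where 2% of genes tested were. Acot3 was higher by 3.09 ± 0.56 (adjusted p = 0.00123, an 8.5-fold difference), Acot2 by 1.67 ± 0.36 (0.00682), Acot1 by 1.53 ± 0.37 (0.0159) and Acot12 by 0.48 ± 0.13 (0.0345). Acot4 was at 0.82 ± 0.24 (0.0529), and passed with median-ratio scaling (0.0441), by DESeq2 (0.0192), with only these groups in the fit (0.0282) and without the libraries that held muscle transcripts (0.0359). In 7 of the 9 genes, all but Acot9 and Acot13, every KO library was above every WT library, where 6.06% of genes tested were. Acot2 and Acot3 passed without any 1 library. The library labelled KO KD 24 h replicate 4, which lay nearer to the other diet, held the highest Acot1, Acot2, Acot8, Acot12 and Acot13 of its group. Without it Acot1 was at 1.19 (0.0803) and Acot12 at 0.40 (0.114), neither of which passed. Their calls were also lost without WT KD 24 h replicate 2 (0.0763 for Acot1, 0.0892 for Acot12) or 4 (0.0564 and 0.0695), and that of Acot12 without KO KD 24 h replicate 1 (0.0707), without the filter on low counts (0.0718) and with only these groups in the fit (0.0638). Acot13 passed without WT KD 24 h replicate 1 (0.88, 0.00963). Of the 10 Kupffer cell and macrophage markers 6 were lower, with sums of 190 to 319 CPM in KO, against 400 to 652 CPM in WT. Stellate cell and fibroblast markers, none of which passed, summed to 214 to 259 CPM in KO, against 156 to 189 CPM in WT. The part of these cells was not tested.

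In WT livers Acot1, Acot3, Acot4 and Acot12 passed as higher on KD at 4 h and as lower on KD at 24 h. At 4 h 5 of the 9 genes were higher on KD and none lower, where 10.8% of genes tested were higher. Acot3 was higher by 2.05 ± 0.60 (adjusted p = 0.0128), Acot1 by 1.84 ± 0.38 (0.000674), Acot4 by 0.96 ± 0.25 (0.00499), Acot13 by 0.57 ± 0.20 (0.0353) and Acot12 by 0.50 ± 0.13 (0.00559). In these 5 no KD library overlapped a CD library, where 15.5% of genes tested were higher without overlap. Acot2 was at 0.63 ± 0.39 (0.229). Only the call of Acot13 was lost by leaving out 1 library: KD replicate 1 (0.118) or 4 (0.0514), or CD replicate 2 (0.0584), 3 (0.0779) or 4 (0.0819). Of the 5 hepatocyte markers 3 were lower on KD, with sums of 29600 to 50400 CPM on KD, against 63500 to 80000 CPM on CD. Without overlap, Kupffer cell and macrophage markers summed to 491 to 668 CPM on KD, against 405 to 476 CPM on CD, and stellate cell and fibroblast markers to 220 to 272 CPM on KD, against 191 to 212 CPM on CD. None of these 10 and 5 markers passed, and the part of any of these cells was not tested. Without the libraries that held muscle transcripts Acot7 passed as lower (−0.40, 0.0413).

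At 24 h 5 of the 9 genes were lower on KD than on CD in WT livers and none was higher, where 1.46% of genes tested were lower. They were Acot1, Acot2, Acot3 and Acot4 of the cluster and Acot12. Acot3 fell by 3.06 ± 0.56 (adjusted p = 0.00309), Acot1 by 2.29 ± 0.38 (0.000973), Acot2 by 2.04 ± 0.36 (0.0024), Acot4 by 0.99 ± 0.24 (0.0226) and Acot12 by 0.60 ± 0.13 (0.0106), on the log2 scale. Acot8 was at −0.56 ± 0.16 (0.0544). Acot1, Acot2, Acot3, Acot4 and Acot8 did not overlap between the diets, where 2.99% of genes tested were lower without overlap. The calls of Acot1, Acot2 and Acot3 stood without any 1 library, with Acot3 at −2.41 without WT CD 24 h replicate 3. Acot4 was lost without that library (0.0846) or WT KD 24 h replicate 2 (0.0758) or 4 (0.0897), and Acot12 without WT CD 24 h replicate 2 (0.0531). Acot8 passed without WT CD 24 h replicate 1 (0.0327) or 4 (0.0459), by DESeq2 (0.0267) and without the libraries that held muscle transcripts (0.0148), and Acot9 without replicate 3 (−0.91, 0.0185). With only these 2 groups in the fit, Acot4 (0.191) and Acot12 (0.282) did not pass. Of the 5 stellate cell and fibroblast markers 2 were lower, with sums of 156 to 189 CPM on KD, against 191 to 394 CPM on CD, and their part was not tested.

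In KO livers no member passed for KD against CD at either time. At 4 h 0 of 9 passed by edgeR or DESeq2, where 7.22% of genes tested were called, and 1, Acot7, had an unadjusted p under 0.05 (−0.45 ± 0.18, adjusted p = 0.133) with no overlap between the diets, where 10% of genes tested were lower without overlap. Acot1 was at 0.33 ± 0.36 (95% interval −0.40 to 1.06) and Acot3 at 0.39 ± 0.50 (−0.63 to 1.42). Hepatocyte markers, 1 of 5 of them lower, summed to 31000 to 54500 CPM on KD at 4 h, against 65400 to 73900 CPM on CD. Stellate cell and fibroblast markers, none of which passed, summed to 209 to 245 CPM on KD, against 184 to 208 CPM on CD. Muscle markers were higher on KD for 4 of 7 genes, with muscle transcripts in KO KD 4 h replicate 4. The part of these cells was not tested. At 24 h 0 of 9 passed by either tool and 0 had an unadjusted p under 0.05, where 0.00693% of genes tested were called by edgeR. Acot1 was at −0.48 ± 0.36 (−1.22 to 0.25) and Acot3 at −0.51 ± 0.49 (−1.51 to 0.49). Both groups at 24 h hold 1 library that lay nearer to the other diet, and whether these labels were exchanged was not tested. Without both libraries 52 genes passed, against 1 with them, and 0 of the 9 members.

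**Figure D3:**
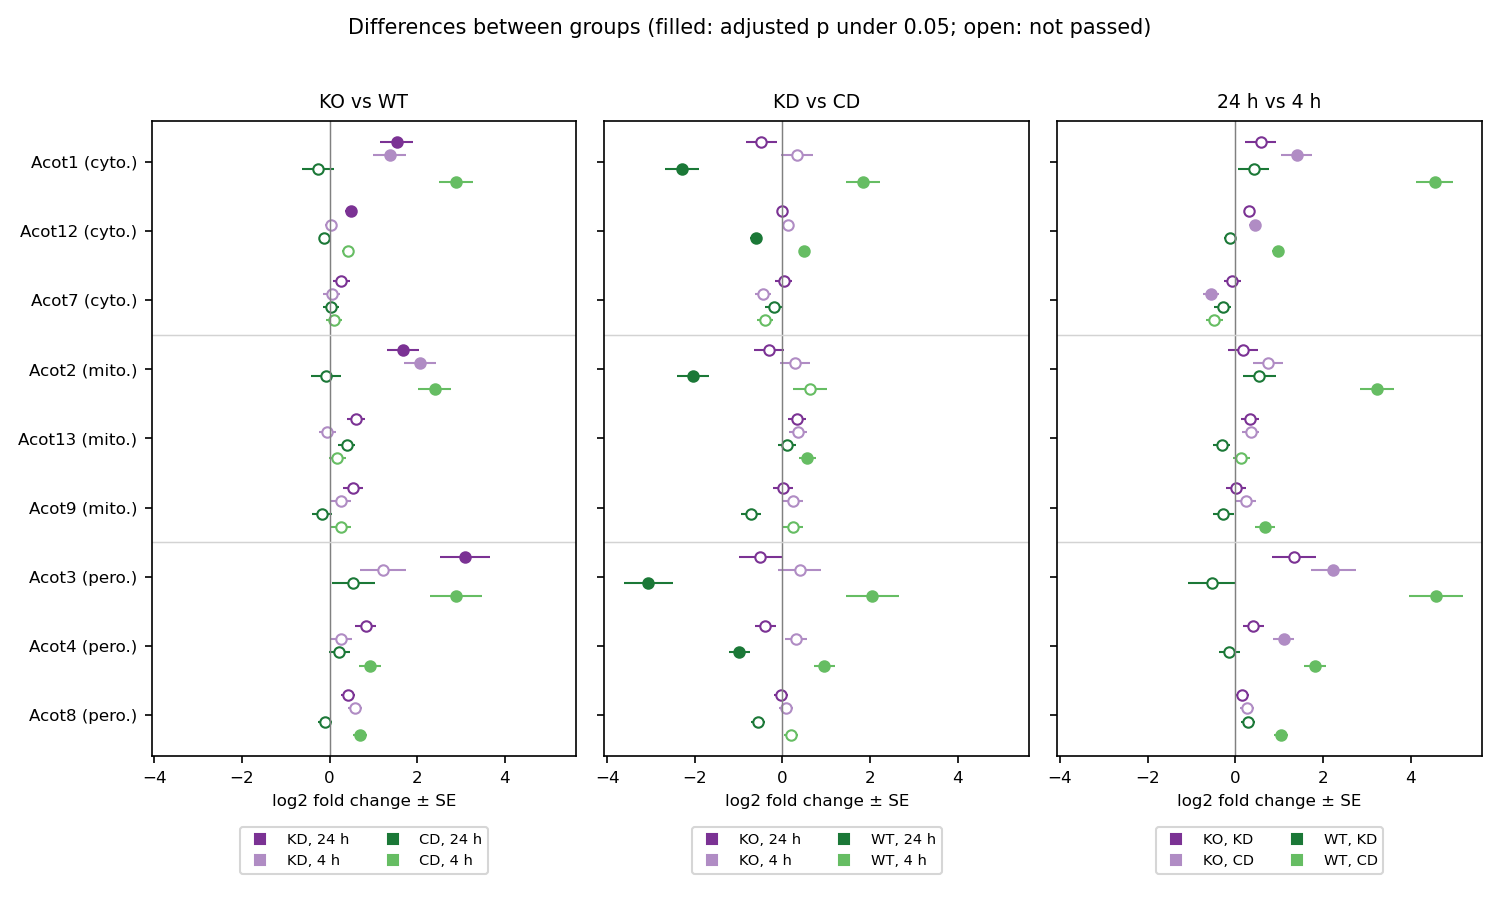
Log2 fold change ± SE of each gene from edgeR for KO against WT, KD against CD and 24 h against 4 h, in each of the 4 settings of the other factors; filled points passed at an adjusted p under 0.05. WT livers (green in the panels of diet and fast; in the panel of genotype green is CD and purple KD) give the values farthest from 0, such as 4.55 for Acot1 with the fast on CD and −3.06 for Acot3 with KD at 24 h, and no member passed for KD against CD in KO livers.

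Whether effects differed was tested as a difference of differences. Between diets, the effect of the fast in WT livers was lower on KD for 6 of the 9 genes, where 5.26% of genes tested were. The differences were −5.11 ± 0.82 for Acot3 (edgeR adjusted p = 0.00012), −4.12 ± 0.53 for Acot1 (6.76e-06), −2.67 ± 0.53 for Acot2 (0.00113), −1.95 ± 0.35 for Acot4 (0.000405), −1.10 ± 0.19 for Acot12 (0.000207) and −0.76 ± 0.23 for Acot8 (0.0268). All 3 peroxisomal genes were among them, with 2 cytosolic genes and 1 mitochondrial gene. Acot9 was at −0.95 ± 0.33 (0.0532) and passed by DESeq2 (0.036). The call of Acot8 was lost without WT CD 24 h replicate 2 (0.0624), WT CD 4 h replicate 3 (0.0517) or 4 (0.0545) or WT KD 4 h replicate 1 (0.0559), and Acot9 passed without WT CD 24 h replicate 3 (0.00986), WT KD 24 h replicate 2 (0.0288) or WT KD 4 h replicate 3 (0.03). In KO livers 0 of 9 passed for this difference by edgeR or DESeq2, 1 had an unadjusted p under 0.05, and 1.39% of genes tested were called.

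Between genotypes, the effect of the fast on CD was lower in KO than in WT livers for 2 of the 9 genes, where 0.492% of genes tested were. They were Acot1 (−3.15 ± 0.52, edgeR adjusted p = 0.00328) and Acot2 (−2.48 ± 0.51, 0.0146). Acot3 was at −2.34 ± 0.77 (0.184), Acot8 at −0.79 ± 0.23 (0.117), Acot4 at −0.70 ± 0.34 (0.44) and Acot12 at −0.52 ± 0.18 (0.227). Acot2 was lost without WT CD 4 h replicate 3 (0.0502). Without the libraries that held muscle transcripts Acot8 (−1.15, 0.00507) and Acot12 (−0.71, 0.0238) passed as well, in a fit where 5.48% of all genes tested were called. Of KO CD 24 h that fit kept only replicates 3 and 4, and replicate 4 lay nearer to the other diet. Acot8 also passed without replicate 2 of KO CD 24 h (0.023) or replicate 1 of WT CD 24 h (0.0484), and Acot12 without WT CD 24 h replicate 1 (0.0349). On KD 0 of 9 passed by edgeR or DESeq2, 3 had an unadjusted p under 0.05, and 0.256% of genes tested were called.

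The effect of genotype was not shown to differ between the diets. At 4 h 0 of 9 passed by edgeR or DESeq2, 3 had an unadjusted p under 0.05, and 0.104% of genes tested were called, with Acot1 at −1.51 ± 0.51 (adjusted p = 0.351). At 24 h 0 of 9 passed by either tool, 6 had an unadjusted p under 0.05, and 0% of genes tested were called by edgeR. There Acot1 was at 1.80 ± 0.51, Acot2 at 1.74 ± 0.49 and Acot3 at 2.55 ± 0.73 (each 0.238). Without the libraries that held muscle transcripts Acot1 (2.44, 0.0294), Acot2 (2.35, 0.0241), Acot8 (0.89, 0.0459) and Acot12 (0.78, 0.0284) passed, in a fit where 1.68% of genes tested were called. That fit kept only replicates 3 and 4 of KO CD 24 h, and replicate 4 lay nearer to the other diet. For the 3 factors together 0 of 9 passed by edgeR, 3 by DESeq2 and 5 at an unadjusted p under 0.05, where 0.125% of genes tested were called. Acot1 lay next to the threshold at 3.31 ± 0.73 (0.0522) and passed without any 1 of 7 libraries: replicate 2 of KO CD 24 h, 4 of KO CD 4 h, 3 of KO KD 24 h, 1 or 4 of WT CD 24 h, 1 of WT CD 4 h or 1 of WT KD 24 h (0.0191 to 0.0495). Acot3 passed without KO CD 4 h replicate 4 (0.0377) and Acot12 without WT CD 24 h replicate 1 (0.0248).

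Genes on either side of the thioesterase step were counted from lists. Of 14 genes of mitochondrial acyl-CoA import and oxidation, 7 were higher in KO than in WT livers on CD at 4 h, 0 passed on CD at 24 h, and on KD 7 were higher at 4 h and 5 at 24 h, with none lower. Of 18 genes of the peroxisomal counterpart 8, 0, 9 and 5 were higher in the same 4 comparisons. Of all genes tested 1.38% were higher on CD at 4 h, 2.07% were called on CD at 24 h, and 1.84% were higher on KD at 4 h and 2% at 24 h. The peroxisomal bifunctional enzyme Ehhadh was higher by 2.36 ± 0.36 (adjusted p = 0.000146) on CD at 4 h, and the dienoyl-CoA reductase Decr1 of mitochondria by 0.79 ± 0.13 (0.000536). With the fast on CD, 1 of the 14 mitochondrial genes rose in KO livers, against 11 in WT livers, and of the 18 peroxisomal genes 0 rose and 4 fell in KO livers, against 10 that rose and 2 that fell in WT livers. Of all genes 8.97% rose and 9.75% fell in KO livers, against 8.89% and 9.61% in WT livers. The difference of the fast between genotypes passed as lower for 4 of the 14 and 7 of the 18 genes, where 0.492% of all genes were lower, among them Ehhadh (−3.39 ± 0.50, 0.00104).

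With KD at 24 h in WT livers 5 of the 14 mitochondrial and 5 of the 18 peroxisomal genes were lower and none was higher, with Ehhadh at −2.71 ± 0.36 (adjusted p = 0.000254) and the carnitine palmitoyltransferase Cpt1a at −0.90 ± 0.25 (0.0416), where 1.46% of all genes were lower. At 4 h 4 of the 14 were higher, and of the 18 3 were higher and 2 lower, where 10.8% of all genes were higher and 16.5% lower. Of 11 tested genes that make acyl-CoA, 2 were higher and 5 lower on KD at 4 h in WT livers, and 1 was higher in KO than in WT livers in each comparison other than CD at 24 h. That gene was Slc27a1, the plasma membrane relative of the lost transporter, with 2.44 ± 0.30 (5.57e-06) on CD at 4 h. Vnn1, the pantetheinase that acts on a breakdown product of CoA, was the 1 gene of 13 for CoA synthesis and breakdown that passed there (3.21 ± 0.37, 1.99e-06). Pctp, which binds Acot13, was higher by 1.02 ± 0.25 (0.0246) in KO on CD at 4 h, while Acot13 was at 0.18 ± 0.20 (0.988). Ppara itself passed in none of the 4 comparisons of genotype, at −0.38 to 0.25.

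The other Acot genes of the cluster were scarce. Acot5, a peroxisomal enzyme, had 34 reads over all libraries and was not tested. Acot6, peroxisomal as well, lay between 0.272 and 5.47 CPM. It was higher in KO than in WT livers on CD at 4 h by 1.75 ± 0.41 (adjusted p = 0.0176) and on KD at 4 h by 1.42 ± 0.38 (0.0331). At 24 h Acot6 was at 1.32 ± 0.39 on CD (0.0695) and 1.16 ± 0.39 on KD (0.0937) and did not pass. Its WT CD 4 h libraries were at 0.317 to 1.35 CPM, where 3 reads make 0.167 to 0.19 CPM. Acot11, of a separate family, was lower after the long fast in WT livers, at −1.62 ± 0.35 on CD (0.00122) and −1.23 ± 0.35 on KD (0.0224). The RNA that overlaps Acot4 and Acot3, 4732463B04Rik, rose with the fast on CD by 2.67 ± 0.38 in KO (3.65e-05) and 2.25 ± 0.41 in WT (0.000229). At 24 h it was higher in KO than in WT livers, by 1.46 ± 0.38 on KD (0.0263) and 1.32 ± 0.36 on CD (0.0499). At 4 h it was higher on KD than on CD, by 1.6 ± 0.38 in KO (0.00918) and 2.12 ± 0.41 in WT (0.000381). Between genotypes at 4 h, between diets at 24 h and with the fast on KD it did not pass. Its highest library, KO CD 24 h replicate 4 at 24.5 CPM, was also the highest for Acot3 (102 CPM) and Acot4 (70.1 CPM) in all 32. How far reads of one were counted for another was not tested.

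Over the 32 libraries the levels of the members were described by Pearson's r of log2 CPM. The libraries share the 8 groups, so r was also taken on deviations from the group means. Acot3 and Acot4, neighbours in the cluster, had 0.95 over all libraries and 0.85 on deviations. Acot1 and Acot8, in different compartments and on different chromosomes, had 0.92 and 0.77, Acot8 and Acot12 had 0.85 and 0.74, and Acot1 and Acot2, which share sequence, had 0.91 and 0.61. Acot3 and Acot8, both peroxisomal, had 0.76 and 0.12. Acot13 had at most 0.40 with any other member over all libraries, and Acot7 had −0.38 to −0.08. Pairs from the same compartment and from different compartments were both among the highest and the lowest values.

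**Figure D4:**
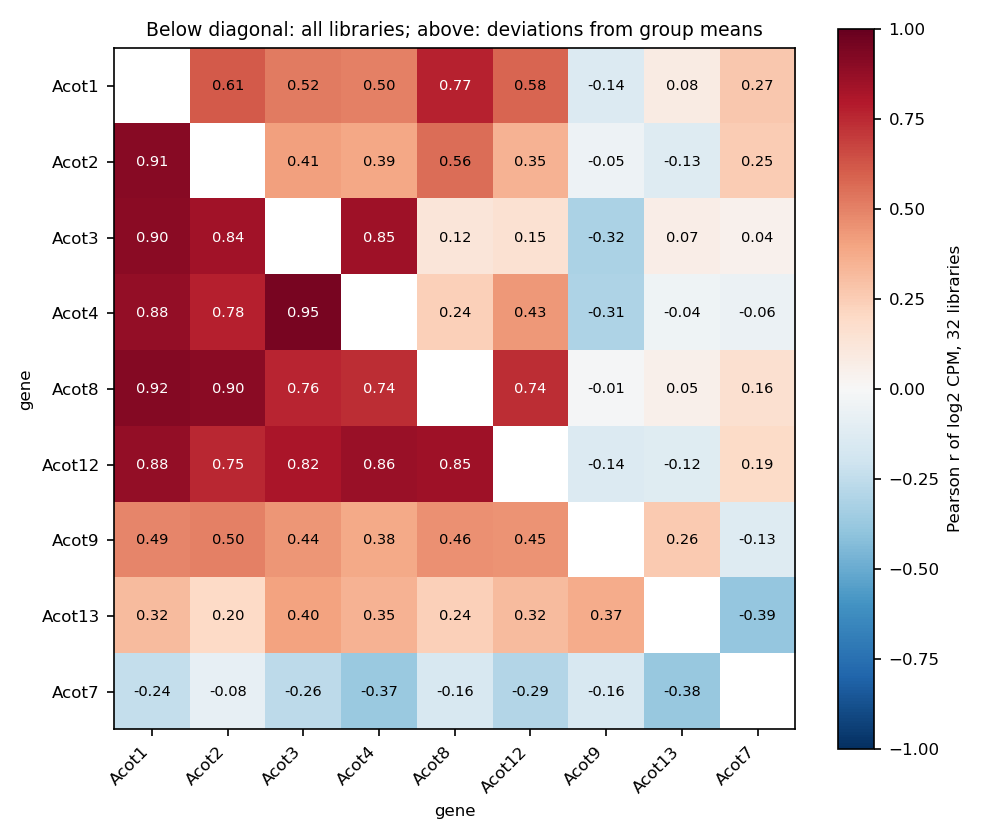
Pearson's r of log2 CPM between pairs of the 9 genes over 32 libraries; below the diagonal on all values, above it on deviations from the group means. Acot1, Acot2, Acot3, Acot4, Acot8 and Acot12 form a block below the diagonal, and above it the highest values are 0.85 for Acot3 with Acot4 and 0.77 for Acot1 with Acot8.

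The 3 genes most like each member over the 32 libraries were sought among other tested protein-coding genes with a mean of at least 5 CPM. Genes with provisional symbols, such as Gm or Rik names, were left out. For Acot1 they were Slc25a20 (r = 0.932), the carnitine-acylcarnitine translocase, and the fatty acid omega-hydroxylases Cyp4a14 (0.925) and Cyp4a10 (0.919). For Acot2 they were Ehhadh (0.918), Slc25a20 (0.911) and Chrna2 (0.903), and for Acot8 Slc25a20 (0.913), Hsdl2 (0.905) and Chrna2 (0.902). Acot3 was closest to the medium-chain dehydrogenase Acadm (0.85), Slc25a20 (0.846) and the carnitine transporter Slc22a5 (0.841). Acot4 was closest to Slc22a5 (0.857), Amigo2 (0.851) and Aifm2 (0.851), and Acot12 to Amigo2 (0.903), Slc22a5 (0.899) and Optn (0.883). Acot13 had other neighbours, Mcee (0.942), Mrpl14 (0.939) and Tomm7 (0.933), each of which encodes a mitochondrial protein. Acot7 was closest to Cers2 (0.85), Fam134a (0.846) and Ube2h (0.843), and Acot9 had no gene above Timm10 (0.701), with Riok1 (0.69) and Gyg (0.654) next. These values were picked as the highest of many and carry no test.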

How the data were processed

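PolyA RNA of 32 mouse livers was sequenced with paired ends. Counts per gene and FPKM were deposited by the authors in one table. Per the submitters' processing notes the tools were Bowtie2 2.2.3, TopHat2 2.0.12 and HTSeq 0.6.1, with the mouse genome GRCm38. Annotation release and strand setting: not given in the sources used here. The deposited FPKM equalled count per gene length and library total in 100% of non-zero values within 0.1%.

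The deposited counts were tested with edgeR 4.0.16 in R 4.3.3: TMM scaling, a filter on low counts, 1 mean per group over all 32 libraries, quasi-likelihood F tests, and p-values adjusted by Benjamini-Hochberg over the 14438 genes tested, with a threshold of 0.05. Levels are CPM on TMM-scaled library sizes. SE is that of the log2 fold change, and a 95% interval covers the fold change. The analysis was tested on simulated data. Each library is a separate animal, numbered in accession order, and the numbers pair nothing.

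The genes and lists were chosen with earlier results of these data known. All 9 genes were tested and counted in every comparison, and not every fold change was given. From each pathway list at most the 3 genes with the largest passing change were named per comparison, along with the genes most like each member and close relatives. Marker lists served to check the tissue. Alternatives were median-ratio scaling, DESeq2 1.42.0, no filter, only the groups compared, leaving out each library, and leaving out the libraries that stood apart. Promoter windows came from RefSeq, and transcripts were aligned with Biopython 1.88.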

Additional observations from a re-analysis of the deposited data

Results flagged for a closer look

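Each gene was examined in each group for a library far from the other 3, which made 72 groups of 4 libraries. In all, 8 such values were found, those of Acot9 and Acot12 in KO CD 4 h in the same library. The rule flags about 1 in 20 groups of independent, normally distributed values. CPM need not be so distributed and the genes share libraries, so the 8 cannot be set against that rate. Acot1 was at 197 CPM in KO KD 4 h replicate 1, with the next library at 144 CPM. Acot3 was at 74.6 CPM in KO KD 24 h replicate 2, with the next at 34.6 CPM, and at 86.3 CPM in WT CD 24 h replicate 3, with the next at 31.7 CPM. Acot4 was at 70.1 CPM in KO CD 24 h replicate 4, with the next at 40.6 CPM. That library lay nearer to the other diet than its label. Acot8 was at 29.7 CPM in KO KD 24 h replicate 4, with the next at 21.3 CPM, and this library also lay nearer to the other diet. In KO CD 4 h replicate 4 the levels of Acot9, at 2.93 CPM, and of Acot12, at 118 CPM, were low, with the next libraries at 3.7 and 157 CPM. Acot12 was at 163 CPM in WT KD 24 h replicate 3, with the next at 141 CPM.

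Effects that differed between groups by a test of the difference itself were also listed. The log2 effect of the fast on CD differed between KO and WT livers by −3.15 for Acot1 and −2.48 for Acot2. The log2 effect of the fast in WT livers differed between KD and CD by −4.12 for Acot1, −2.67 for Acot2, −5.11 for Acot3, −1.95 for Acot4, −0.76 for Acot8 and −1.1 for Acot12. Causes of these values were not tested.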

How the results depend on the processing

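Of 3042 fold changes of the 9 genes recomputed under the alternatives, 2925 kept their side of the threshold, and 62 lost and 55 gained a call. The sign changed in 82, none of which passed in either fit and whose reported sizes were at most 0.30 on the log2 scale. Of 144 group means recomputed under median-ratio or total-count scaling, 138 stayed within 1 SD, with a largest change of 11.8%. Counts of genes passing changed by over 1.5 times as follows. Without the 4 libraries with muscle transcripts 1 gene passed for KO against WT on CD at 24 h, where the count over all genes was 2247, against 299 with all libraries. In the same way 4 passed for genotype by diet at 24 h (248 over all genes, against 0), 4 for genotype by fasting on CD (810, against 88), 1 for diet by fasting in KO (Acot7; 578, against 201) and 1 for the 3 factors together (20, against 18). All of these comparisons then held only replicates 3 and 4 of KO CD 24 h, of which replicate 4 lay nearer to the other diet. Without the libraries nearer to the other diet 2 passed for KO against WT on KD at 24 h. With only the groups compared in the fit 3 passed for KD against CD in WT at 24 h, and 1 for 24 h against 4 h in KO on KD (Acot3), where DESeq2 also gave 1. For the 3 factors together median-ratio scaling gave 1, no filter 1 and DESeq2 3. The cause was not tested.

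Leaving out 1 library at a time gave 2 to 6 genes for KO against WT on CD at 4 h, 0 to 0 on CD at 24 h, 1 to 2 on KD at 4 h and 2 to 5 on KD at 24 h. It gave 4 to 5 for KD against CD in WT at 4 h, 4 to 6 at 24 h, and 0 to 0 in KO at both times. For 24 h against 4 h it gave 6 to 8 in WT on CD, 0 to 1 in WT on KD, 3 to 5 in KO on CD and 0 to 0 in KO on KD. For genotype by diet it gave 0 to 0 at both times, for genotype by fasting 1 to 4 on CD and 0 to 0 on KD, for diet by fasting 5 to 7 in WT and 0 to 0 in KO, and for the 3 factors together 0 to 2. No paired analysis was possible because the replicate numbers are only an accession order. Depth limits Acot9 and Acot3 most, whose lowest counts in a library were 31 and 13 reads.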
